A study of Drosophila melanogaster with 2 samples.

Results

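The regions described here are the intronic peaks of an Asciz chromatin immunoprecipitation (ChIP-seq) experiment that lay 2 to 10 kb from any transcription start site (TSS). A peak was a member when its summit lay inside an annotated gene, outside every annotated exon, and more than 2 kb but at most 10 kb from the nearest annotated TSS of any gene. The rule used position and no measured value, and it took 1099 of the 5085 peaks that the authors kept, or 21.6% (95% Wilson interval 20.5 to 22.8%). The material was whole embryos of Drosophila melanogaster, 0 to 24 h old and of mixed sex, from a transgenic line carrying CG14962 (the annotation symbol of Asciz) with GFP fused to its C terminus. The antibody was against GFP, so the peaks are those of the tagged protein in a mixture of all embryonic ages and cell types. There was 1 group of 2 libraries, labelled biological replicates 1 and 3, and an untreated or mutant group was not analysed here. Nothing states how many embryos were pooled, and fewer bound cells and less binding per cell cannot be told apart.

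Asciz is a zinc finger transcription factor. Its best known target is ctp, which encodes the dynein light chain LC8, and LC8 in turn binds Asciz and lowers its activity. Introns of flies often hold enhancers, the short sequences that set when and where a gene is transcribed, and first introns of developmental genes are a common place for them.

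To show what lies under the summits, the summit base and 50 bp to each side are given first for 4 of the 8 members of highest signal, with a member of low A+T content. They are read on the plus strand of dm6, 5′ to 3′. Capitals mark, on either strand, the 10 6-mers that led the comparison of summits with flanking sequence, each of which is given below with its shares.
sim, chr3R:13068189-13068289: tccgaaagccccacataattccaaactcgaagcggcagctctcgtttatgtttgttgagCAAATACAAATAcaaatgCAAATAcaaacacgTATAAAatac
Gug, chr3L:8458269-8458369: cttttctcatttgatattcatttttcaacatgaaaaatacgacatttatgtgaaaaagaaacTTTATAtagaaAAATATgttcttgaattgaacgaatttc
Tlk, chrX:3742173-3742273: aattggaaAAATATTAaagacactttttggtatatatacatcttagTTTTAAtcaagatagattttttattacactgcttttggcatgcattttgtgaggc
trx, chr3R:14283834-14283934: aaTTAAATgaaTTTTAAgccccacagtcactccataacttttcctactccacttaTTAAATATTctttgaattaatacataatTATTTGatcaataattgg
bru1, chr2L:12195019-12195119: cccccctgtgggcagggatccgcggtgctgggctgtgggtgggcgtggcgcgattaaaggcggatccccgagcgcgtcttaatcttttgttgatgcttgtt
The sim summit held CAAATA repeated with little between the copies. The bru1 window, with 37.6% A+T, held none of the 10, although the sequence to its sides had 81.7%.

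A second set shows, for each 8-mer more frequent at these introns than at promoter peaks, a member of high signal that held it. Capitals mark the 8-mer named in parentheses, or its complement on the other strand.
CG13917 (GGCAAACA), chr3L:1579492-1579592: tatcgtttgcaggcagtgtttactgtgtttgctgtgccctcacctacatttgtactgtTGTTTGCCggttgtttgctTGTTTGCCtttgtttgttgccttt
simj (CTGTTGAC), chr3L:10683063-10683163: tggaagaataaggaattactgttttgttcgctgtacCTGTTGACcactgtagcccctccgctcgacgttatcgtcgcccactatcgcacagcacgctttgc
smash (ATATTGAC), chr3R:4665149-4665249: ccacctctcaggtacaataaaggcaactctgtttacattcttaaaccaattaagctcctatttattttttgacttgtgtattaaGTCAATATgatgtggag
The CG13917 window held GGCAAACA as 2 separate copies on the minus strand.

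The signal printed for a peak is that deposited by the authors in their list for both libraries together, and it serves only to rank and describe peaks. Over the 1099 members its median was 196, its quartiles were 153 and 285, and it ran from 127 to 1485. The median was 219 over the 1902 promoter peaks (summit within 500 bp of a TSS), 190 over the 307 intronic peaks more than 10 kb from a TSS and 189 over the 451 intergenic peaks. Members made up 15% of the 500 strongest peaks and 24.2% of ranks 4501 to 5000. A further 6176 weaker regions of the authors' unfiltered list met the same location rule, with a median signal of 52.9.

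For each library, relative signal is the signal of the strongest region overlapping a member divided by the median of the same measure over all 5085 peaks. Lrch, which encodes a protein with leucine-rich repeats and a calponin homology domain, held the highest member, with signal 1485. Its relative signal was 7.18 (replicate 1) and 6.65 (replicate 3). It lay in the first of 7 introns, 5249 bp downstream of a TSS of Lrch. The second, with signal 1466, had 6.39 and 6.96 and lay in an intron of CG46321, whose TSS was the nearest. The spans of 3 genes overlap there, among them Hr3, a nuclear receptor gene of the ecdysone response. The third member lay in CG12769 and had 6.96 and 6.65. At these 3 members both libraries gave more than 6 times the median peak.

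The next members lay in genes of several kinds. An intron of sim, the gene of the basic helix-loop-helix factor of the ventral midline, had 5.15 in replicate 1 and 5.67 in replicate 3. Gug, the fly atrophin corepressor, had 5.41 and 5.16. Tlk, a Tousled-like kinase, had 4.90 and 5.03. simj, a p66-type subunit of the NuRD complex, had 5.24 and 4.79, and trx, a histone methyltransferase of the trithorax group, had 5.29 and 4.57. JIL-1, a histone H3 kinase, had 4.19 and 4.54, and Kdm2, a JmjC histone demethylase, had 4.55 and 3.44. The value of simj belongs to both of its strong members, since each library called a single region over them.

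Others among the 15 highest lay in genes for signalling and adhesion proteins. Raf, the kinase at the head of the MAP kinase cascade, reached 4.19 in replicate 1 and 5.31 in replicate 3 at a summit 2246 bp from its TSS. S (Star), which handles EGF receptor ligands inside the cell, had 4.0 and 5.08. caps, a transmembrane protein with leucine-rich repeats that acts in axon targeting, had 4.39 and 3.60. CG46385 had 4.24 and 4.23, and CG32486 had 4.24 and 4.13. Across the 15 members the lowest value in either library was 3.44. They were picked on signal made from the same 2 libraries, so values above the median in both were close to fixed in advance.

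Of the 1099 members, 832 (75.7%, 73.1 to 78.1%) overlapped the 5085 strongest regions of both libraries, against 75.3% of the other peaks. In 4 groups of nearly equal size from strongest to weakest this share was 100%, 98.2%, 81.1% and 23.6%. It is bound to fall toward the end of the list, since the groups were formed on signal from the same libraries, and it does not show how alike the libraries ranked the members. All members had a region in replicate 3, and 5 had none in replicate 1, 1 each in rudhira, PRAS40, ltl, Unc-76 and Fim. Among the 1094 with both, the median absolute log2 difference was 0.28, and 34 (3.11%, 2.23 to 4.31%) differed by more than 1, 24 of them higher in replicate 3. The share was 6.50% of promoter peaks, 1.63% of intronic peaks over 10 kb from a TSS and 2.0% of intergenic peaks. The median distance between the 2 libraries' summits was 23 bp. In each library 98 members shared their region with another member, so that their values are not separate measurements.

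**Figure D1:**
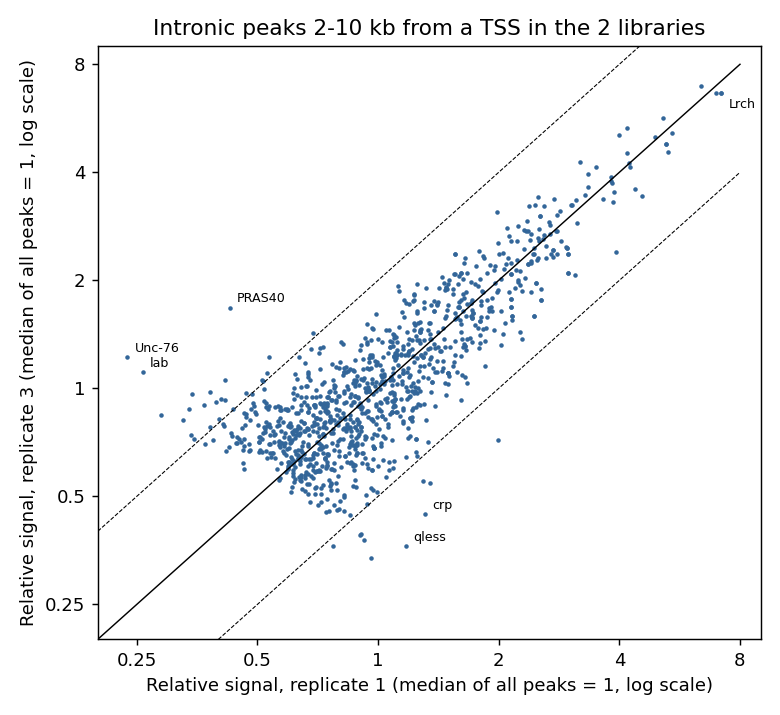
Relative signal of the 1094 members found in both libraries, replicate 1 on the horizontal and replicate 3 on the vertical log scale, 1 point per member. The solid line is equality and the dashed lines mark a log2 difference of 1; 34 members lie beyond them, and labels name the highest member and those with the largest differences.

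The largest differences were at weak or middling members. At Unc-76, a gene for axonal transport, relative signal was 0.237 in replicate 1 and 1.22 in replicate 3. At lab, the most anterior Hox gene, it was 0.259 and 1.11, and at PRAS40, which encodes a regulator of the TOR kinase complex, 0.427 and 1.68. CG46339 had 0.287 and 0.845, and dve, a homeodomain gene, had 0.344 and 0.965. In the other direction qless had 1.18 in replicate 1 and 0.363 in replicate 3, crp had 1.31 and 0.446, rdx had 0.963 and 0.338, CG1677 had 1.99 and 0.720, and CG42327 had 1.35 and 0.547. With 1 value per library there is no test of a single member.

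The location rule fixes where members can lie, so their positions are given beside the sequence that could hold them, with no test. Sequence meeting the rule, called eligible here, came to 24.2 Mb, or 18.1% of the 6 chromosomes. It held 45.4 members per Mb, beside 38.0 peaks of any kind per Mb of chromosome. The arms 2L, 2R, 3L, 3R and the X chromosome held between 44.5 and 49.4 per Mb. Chromosome 4 held none in 0.338 Mb, which allows up to 8.89 per Mb by counting error alone. Peaks of any kind were also sparse there, 20 or 14.8 per Mb of chromosome, against 35.0 to 41.8 on the others. Density was 53.2 per Mb at 2 to 3 kb from a TSS and 37.6 at 8 to 10 kb.

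By length of the intron, density was 32.5 per Mb in introns up to 5 kb, 63.8 at 5 to 10 kb, 51.6 at 10 to 20 kb, 36.7 at 20 to 40 kb and 38.8 above 40 kb. First introns held 405 members, 36.9% (34.1 to 39.7%), and 27.8% of the eligible sequence. Last introns held 5.0% of members and 7.53% of the sequence. The nearest TSS belonged to the host gene for 755 members, 68.7% (65.9 to 71.4%), against 56.6% of the sequence. When introns were cut into 3 equal stretches, the first, middle and last held 31.4%, 36.4% and 32.2% of members, beside 32.8%, 34.9% and 32.3% of the sequence.

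**Figure D2:**
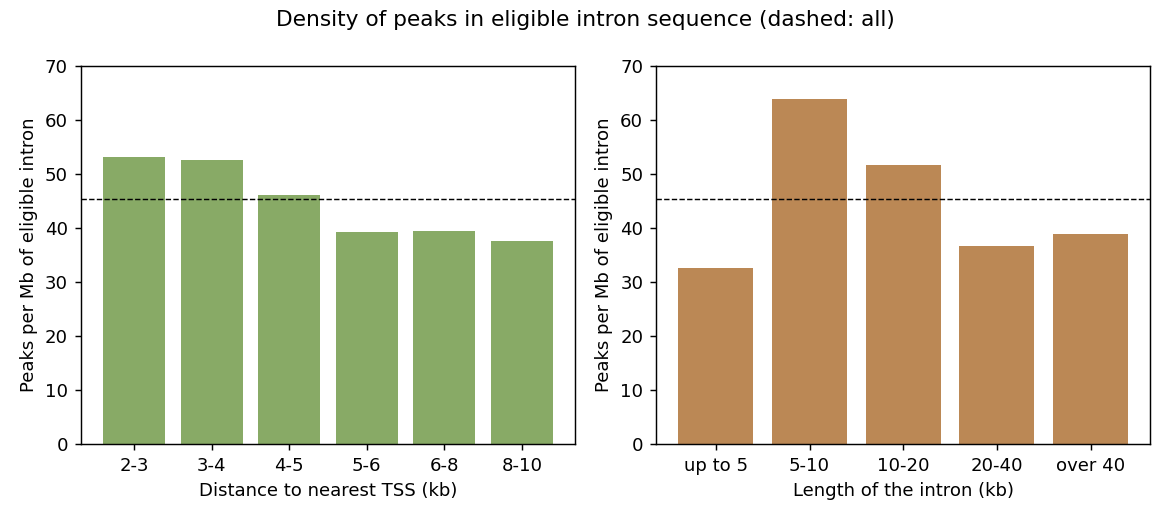
Members per Mb of eligible intron by distance to the nearest TSS (left, kb) and by length of the intron (right, kb); bars start at 0 and the dashed line is the density over all eligible sequence, 45.4 per Mb. Density was higher within 4 kb of a TSS than beyond 5 kb, and highest in introns of 5 to 10 kb.

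Signals at the distance bounds are given for reference. The 3 nearest inside the lower bound, in Ssdp, CG13101 and px, had signals of 151, 202 and 180.0. The 3 just outside it, in Abd-B, Fim and CG46321, had 385, 211 and 349. At the upper bound MESR3, spir and nmo lay inside with 636, 156 and 259.9, and Tie, dsx-c73A and cdi outside with 188, 404 and 177.

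Spacing between members is given as a description, with no background beside it, since eligible sequence is itself confined to introns. The median distance to the nearest other member was 5.49 kb, 208 members (18.9%) had another within 1 kb, and 238 introns of 741 held more than 1. Counting members that overlap as 1 left 1049.

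The summits were rich in A+T, a property the rule did not use. A+T was 66.2% ± 8.14 (SD over 1099 members) in the window reaching 50 bp to each side of the summit and 56.9% ± 6.95 in equal windows whose centres lay 300 bp to either side. The difference was 9.25 ± 12.1 percentage points, and 834 members (75.9%) were higher at the summit. Eligible intron as a whole had 60.1%, so flanks lay below and summits above it. The weaker regions at the same kind of location had 61.8% and 58.5%, a difference of 3.30. Within the members, summit A+T was 68.0% in the 274 strongest and 65.2% in the 275 weakest.

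**Figure D3:**
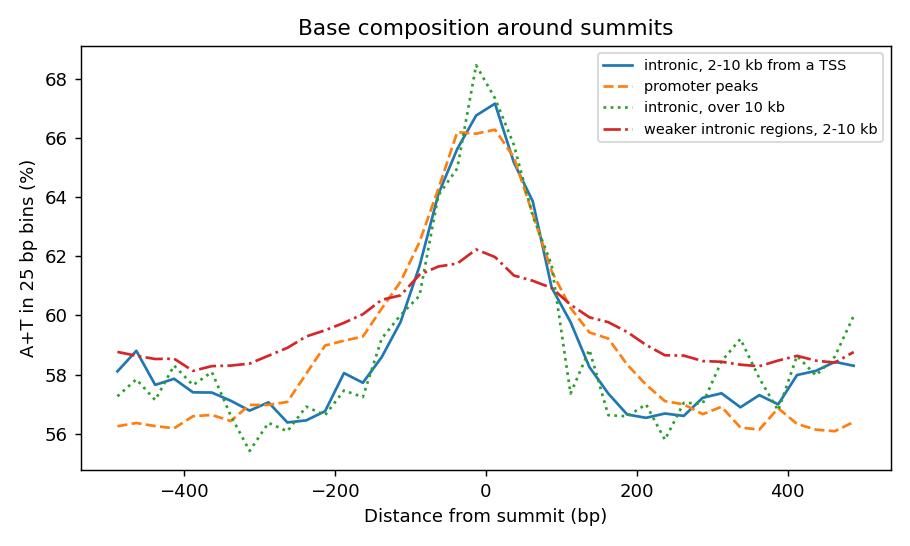
Mean A+T (%) in 25 bp bins against distance from the summit (bp) for the 1099 members, promoter peaks, intronic peaks over 10 kb from a TSS, and weaker intronic regions meeting the same location rule. Members reached 67.2% beside the summit and fell to 56.4% at their lowest, and the weaker regions reached 62.2%. Promoter peaks reached 66.3% and intronic peaks over 10 kb from a TSS 68.5%.

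The 6-mer content followed the same contrast. Each of 2080 6-mers (a 6-mer and its complement counted together) was compared by presence in 1099 summit windows and 2198 flanking windows with Fisher's exact test, two-sided, with Benjamini-Hochberg adjustment at 0.05. At summits 327 were more frequent (15.7% of those tested) and 545 less frequent (26.2%). Of the 36 with only A and T, 35 were more frequent, and of the 36 with only C and G, 25 were less frequent. Overlapping 6-mers share bases and are not separate findings, and the p-values describe this list of peaks, not variation between embryos. The test counted all windows as separate and did not use the pairing of a summit with its own flanks. Since 102 members had another within 500 bp, some flanks can lie near another member's summit. How far A+T content alone sets these counts was not tested.

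AAATAT led, in 36.8% of summit windows and 14.9% of flanks (Fisher's exact test, adjusted p = 1.62e-40). TAAATA was in 32.3% and 13.2%, AATATT in 22.3% and 7.23%, and CAAATA in 25.7% and 9.96%. TAAACA, the core read by forkhead factors, was in 22.1% and 9.83%. Of the others, TATAAA was in 22.7% of summits and 9.55% of flanks, ATATTA in 18.7% and 7.10%, AATATA in 21.7% and 9.05%, TTAAAA in 27.4% and 13.9%, and ATTTAA in 24.3% and 11.6%. At least 1 of the 10 leading 6-mers was in 84.2% of member summits (81.9 to 86.2%), in 50.6% of their flanks, in 82.4% of other peaks and in 67.1% of the weaker regions. It was in 90.5% of the 274 strongest members and 80% of the 275 weakest. The 10 were chosen by contrasting these summits with these flanks, so the shares in summits and in flanks support nothing. The other shares also use a set of 6-mers chosen on the members. Among the 6-mers less frequent at summits, CGCAGC was in 1.73% against 6.46% and GCAGCA in 4.37% against 10.5%.

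**Figure D4:**
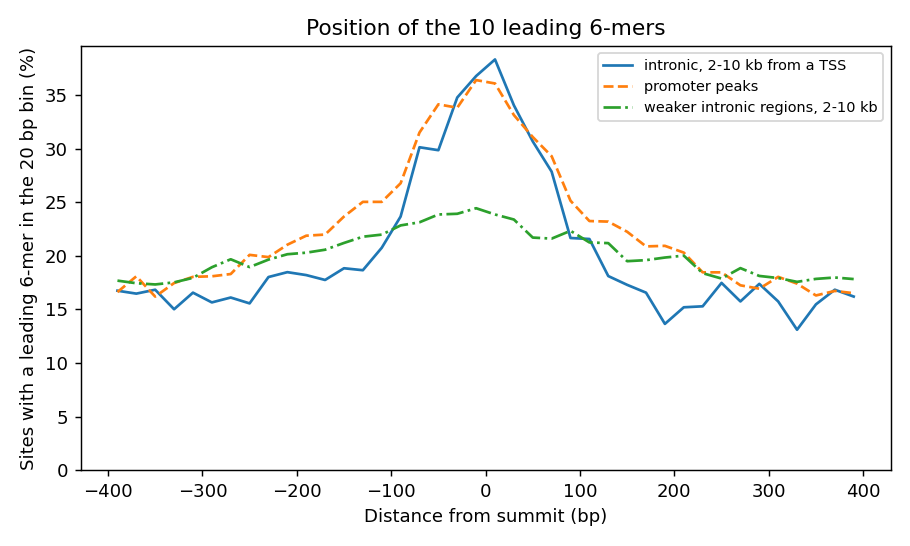
Share of sites (%) with at least 1 of the 10 leading 6-mers starting in each 20 bp bin, against distance from the summit (bp), for members, promoter peaks and weaker intronic regions. Members reached 38.3% beside the summit and averaged 16.2% more than 200 bp away; the 6-mers were chosen on the members.

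With 8-mers, 151 of 32896 were more frequent at summits (0.459%) and 15 less (0.0456%). AATATTTG was in 6.55% of summits and 1.27% of flanks, 5.14-fold more often, and 48 of its 72 carriers (66.7%) had it centred within 25 bp of the summit. ATATTTAC was in 4.91% and 0.864%, and AACAAATA in 5.10% and 1.14%. The 56 members with AACAAATA had a median signal of 227, against 194 for the rest, the widest gap of the leading 8-mers. Their median relative signal was 0.987 against 0.941 in replicate 1 and 1.13 against 0.936 in replicate 3. For ATATTAAA (188 against 198), TATTTACA (192 against 197) and AAATATTG (192 against 197) carriers were the weaker. GCAGCAGC was in 0.182% of summits and 2.37% of flanks.

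Most of this was shared with the other peaks of the experiment. Of the 327 6-mers more frequent at member summits, 302 were also called at the other 3986 peaks against their own flanks, which is 92.4% of the members' calls and 61.1% of the 494 called there (23.8%, with 49% less frequent). Set directly against the other peaks, no 6-mer passed (0% of 2080 in either direction), with 156 at an unadjusted p under 0.05, and no 8-mer (0% of 32896), with 970. GGCAAACA came nearest, in 3.91% of members and 1.46% of other peaks (Fisher's exact test, adjusted p = 0.0629). Against intronic peaks over 10 kb from a TSS no 6-mer passed (0%), with 65 unadjusted, and against intergenic peaks none (0%), with 102. Neither comparison called an 8-mer (0% of 32896), with 531 and 380 unadjusted.

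A difference appeared against the 1902 promoter peaks, a comparison added with earlier results known. There 11 6-mers were more frequent at members (0.529%) and 15 less (0.721%). CAAATA was in 25.7% of members and 18.6% of promoter peaks (Fisher's exact test, adjusted p = 0.00364), GCAAAC in 12.6% and 7.57% (0.00364), and AGACAA in 8.28% and 4.52% (0.0111). On the other side CGGAAA was in 3.46% of members and 8.10% of promoter peaks (0.000510), TATCGA in 3.55% and 8.04% (0.000599), and ATCGAT in 2.18% and 5.52% (0.00367). ATCGAT lies inside TATCGATA, the element read by DREF at many housekeeping promoters, which was in 0.273% of members and 2.05% of promoter peaks. With the stronger 50% of the peaks none of the 11 was called as more frequent. With the strongest regions of each library alone, 5 of these 26 were called in both. They were CAAATA and GCAAAC, more frequent, ATCGAT and also TATCGA, less frequent, and CCGGAA, less frequent.

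Among 8-mers 3 were more frequent than at promoter peaks (0.00912%) and 1 less (0.00304%). GGCAAACA was in 43 members (3.91%) and in 0.894% of promoter peaks (Fisher's exact test, adjusted p = 0.00113). It was in 1.25% of proximal peaks (501 to 2000 bp from a TSS), 3.58% of intronic peaks over 10 kb, 2.44% of intergenic peaks and 1.23% of the members' own flanks. CTGTTGAC was in 15 members (1.36%) and 0.0526% of promoter peaks (0.0311), and ATATTGAC in 25 (2.27%) and 0.421% (0.0418). Intergenic peaks held these in 1.55% and 2.22%, and intronic peaks over 10 kb in 0.651% and 0.977%. Proximal peaks held CTGTTGAC in 0.391% and ATATTGAC in 0.938%, and the weaker intronic regions in 0.291% and 0.502%. GGCAAACA was in 1.72% of those weaker regions. The calls are thus against promoter peaks, but proximal peaks and weaker regions also had lower shares than members. They do not set members apart from intergenic peaks. The 1 less frequent was ATCGATAG, in 0.0910% and 2.10% (0.00368). Members with GGCAAACA were not the strongest ones: their median signal was 181, against 198 for those without it. Its highest carrier was CG46385, with a relative signal of 4.24 (replicate 1) and 4.23 (replicate 3), ahead of CG13917 with 2.59 and 2.67 and CG42238 with 2.45 and 2.37.

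Set against the 6176 weaker regions of like location, 125 6-mers were more frequent (6.01%) and 131 less (6.3%). AATATT was in 22.3% of members and 12% of weaker regions (Fisher's exact test, adjusted p = 6.70e-15), CAAATA in 25.7% and 14.9% (5.14e-14), and TAAACA in 22.1% and 13.9% (1.17e-08). GGCCAA was in 3.28% and 7.09%. Among 8-mers 17 were more frequent (0.0517%), led by AAATATTT in 7.64% and 3.35%, and none less (0%). Against only as many of the strongest weaker regions as there are members, no 6-mer passed, with 174 at an unadjusted p under 0.05.

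Known short elements were also counted, on both strands, in the members, their flanks and the other peaks. GAGAG, bound by GAGA factor, was in 10.2%, 17.3% and 10.9%. TAATTA, a homeodomain site, was in 9.19%, 6.41% and 9.68%. CANNTG, the E-box, was in 40.1%, 43.8% and 35.3%. GATAAG, the GATA site, was in 6.55%, 4.82% and 6.65%. CAGGTAG, bound by Zelda, was in 0.637%, 0.591% and 0.452%. TTTATG, a Caudal type site, was in 13.0%, 12.2% and 13.6%. AGGTCA, the nuclear receptor half-site, was in 1.82%, 2.18% and 1.76%, and ACAATG, a Sox site, in 7.37%, 6.41% and 5.67%. The repeat CACACA was in 9.55% of members, 11.9% of flanks and 8.28% of other peaks. AAAAAA was in 23.5%, 20.7% and 26.9%, and TATATA in 11.2%, 5.73% and 10.9%. Some of these letters overlap the 6-mers above, and a match is a run of letters, not a shown site.

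The members fell in 628 host genes, 14.5% of the 4333 genes with eligible intron. In all counts by gene, a member inside overlapping gene spans counts for each of them, which holds for 71 members (6.46%). Of the hosts 356 held 1 member, 272 held more and 32 held 5 or more. lncRNA:CR44357 held 11 in 118 kb of eligible intron, and CG1677, whose span lies inside it, held 8. PRAS40 held 9 in 9.80 kb, several of which overlap or share a library's region. tara, a trithorax group gene, Eip75B, an ecdysone-induced nuclear receptor, px, a wing vein gene, and RapGAP1, a GTPase activator, held 8 each. shn, a zinc finger protein that acts in BMP signalling, and mew, an integrin subunit, held 7 each, and Tlk held 6. CHES-1-like, a forkhead gene, held 6 in 7.45 kb.

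Promoter peaks were counted in the host genes as a description, with no test. Of 610 protein-coding hosts (14.5% of 4216 such genes), 264 (43.3%) had a peak within 500 bp of a TSS, against 620 of the 3606 others (17.2%). In 5 classes of eligible length the share was 37.1 to 51.9% in hosts and 15.5 to 20.6% in the others, so it was higher in hosts in each class.

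The 10 gene lists described next were chosen with earlier results of these data known, so their counts support nothing on their own. Whether an interval holds another share is likewise not a test. Each is given by how many genes with eligible intron held a member, beside 14.5% and 45.8 members per Mb over all genes. Since eligible length differs between genes, the share over all protein-coding genes in the same classes of eligible length (bounds at 2, 5, 10 and 20 kb), weighted as in the list, is given too as the length-matched share.

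Genes of the Wnt, Hedgehog and BMP pathways, which pattern the embryo, had the highest share of the 10 lists. Members lay in 18 of 34 (52.9%, 36.7 to 68.5%), with 134 members per Mb and a length-matched share of 25.4%. shn held 7, Dad, the inhibitory SMAD of the BMP pathway, and fz2, a Wnt receptor, held 5 each, and fz, also a Wnt receptor, nkd, a Wnt antagonist, and sog, a BMP antagonist, held 4 each. The glypican gene dlp and the co-receptor gene arr held 3 each. Ligand genes Wnt4, dpp and hh and the receptor gene ptc held 1 each, and wg held 0 in 4.74 kb. The highest member was in Dad, with signal 692 and relative values of 3.05 (replicate 1) and 3.25 (replicate 3), ahead of shn with 2.50 and 2.62 and fz with 2.22 and 2.58.

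In the receptor tyrosine kinase pathways members lay in 12 of 27 genes (44.4%, 27.6 to 62.7%), with 86.2 per Mb and a length-matched share of 25.7%. Raf held 6, Pvf3, a ligand, held 4, and the ETS factor genes aop and pnt held 3 each. The receptors InR, Egfr, Pvr and sev and the ligands bnl, ths and vn were also hosts. aos, a secreted inhibitor of the EGF receptor, held 1 member with 3.12 in replicate 1 and 3.34 in replicate 3. With the strongest regions of replicate 1 alone (without replicate 3), 10 of the 27 were hosts, and 12 with replicate 3 alone.

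In the Notch pathway members lay in 5 of 11 genes (45.5%, 21.3 to 72.0%), with 78.7 per Mb and a length-matched share of 23.1%. The coactivator gene mam held 6, with 3.13 in replicate 1 and 2.89 in replicate 3 at the highest, fng held 2, and N, neur and kuz held 1 each. With the strongest regions of replicate 1 alone (without replicate 3), 2 of the 11 were hosts.

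Among nuclear receptor and ecdysone response genes members lay in 7 of 19 (36.8%, 19.1 to 59.0%), with 81.9 per Mb. The length-matched share was 34.8%, so the share was close to that of other genes of such length. Eip75B held 8, ftz-f1 6 and Hr4 and Hr3 4 each, and Hr4 had 3.50 in replicate 1 and 4.14 in replicate 3 at its highest. BTB and chromatin regulators were hosts in 8 of 27 cases (29.6%, 15.9 to 48.5%; length-matched 18.9%), with psq, skd and trx holding 3 each, and Psc, a Polycomb group gene, had 2.85 and 3.12.

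Axon guidance and neural adhesion genes were hosts in 15 of 34 cases (44.1%, 28.9 to 60.5%), beside a length-matched 33.7% and with 50.1 members per Mb. Sema1a held 5, and caps, the netrin receptor gene fra and Ten-a held 4 each. fra had 2.54 in replicate 1 and 3.02 in replicate 3. Cell junction and polarity genes were hosts in 12 of 29 (41.4%, 25.5 to 59.3%), beside 29.6%, with mew holding 7 and scrib and cno 3 each. In both lists the interval held the length-matched share.

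The homeodomain and ion channel lists lay below their length-matched shares, which their intervals still held. Listed homeodomain genes were hosts in 8 of 53 cases (15.1%, 7.85 to 27.1%), beside a length-matched 26.6%, and held 28.3 members per Mb. The list is not complete: dve, a homeodomain gene that held a member, is not in it. Antp held 4, hth 3, ct and lab 2 each, and cad, Lim1, acj6 and Awh 1 each, while Ubx, with 17.0 kb eligible, and Dfd, with 7.40 kb, held 0. None of these 8 hosts had a promoter peak. The 2 strongest members in Antp also lay inside CG46458. Ion channel genes were hosts in 5 of 38 cases (13.2%, 5.75 to 27.3%), beside 25.1%, and held 12.1 members per Mb, 1 each in Shal, Irk1, Sh, NaCP60E and Ih. The highest, in Shal, had 0.853 in replicate 1 and 1.14 in replicate 3. The member in Irk1 also lay inside CG46310. Muscle structure genes were hosts in 4 of 18 (22.2%, 9.0 to 45.2%), beside 19.6%, with Zasp52 holding 3.

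**Figure D5:**
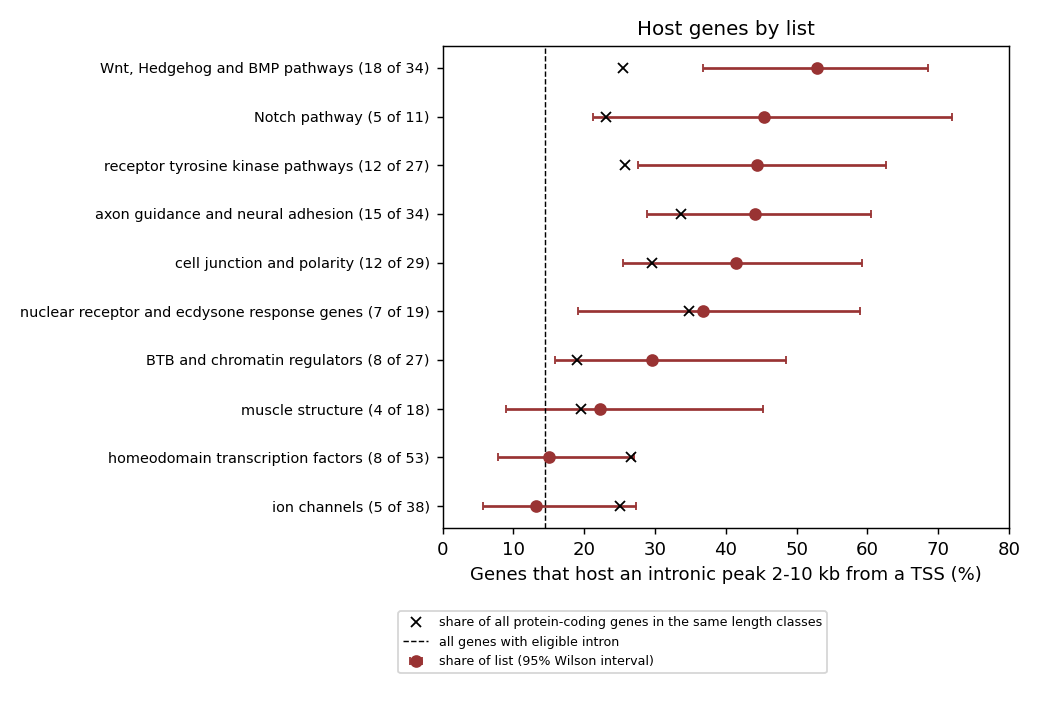
Share of each list's genes with eligible intron that host a member (%), with its 95% Wilson interval; crosses are the length-matched shares and the dashed line is 14.5%, the share over all genes. The lists were chosen with earlier results of these data known, so a cross inside or outside an interval is not a test.

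The tagged gene and its known target held no member. Asciz has no eligible intron sequence. ctp has 7.89 kb and held 0, and the nearest member, in Pp2C1, lay 3.08 kb from it.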

How the data were processed

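ChIP-seq of whole embryos was deposited by the authors as peak lists. The column of signal, deposited by the authors, is the peak caller's value per peak, and the lists do not share a scale. A −log10 q value per peak, also deposited by the authors, was left unused. Names of the aligner and peak caller and the number of reads were not given in the sources, so the depth is unknown and the intervals printed cover counting of regions only. Peaks passing the irreproducible discovery rate were made by the authors from both libraries, per the file listings, against a control alignment not analysed here. The dm6 lists were used and the dm3 lists left out.

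Summits were placed on the Ensembl release 115 gene models without transposable elements. Merged exons of a gene define its introns, numbered in the direction of transcription. Sequence came from release 6 of the RefSeq genome, which is dm6. 6-mers were tested by Fisher's exact test with Benjamini-Hochberg adjustment (scipy 1.17.1, Python 3.11.15). On simulated windows 0 of 2080 6-mers were called with none planted and 20 of 20 when planted. Both simulated sets were shuffled flanking windows of like composition, so they do not cover the A+T contrast between summits and flanks. The location rule returned 300 of 300 placed summits, but these were drawn from eligible sequence, so that outcome was fixed in advance. The members and lists were chosen with earlier results of these data known, and the comparison with promoter peaks, the position within genes, the promoter peaks of hosts, the length-matched shares and the carriers of 8-mers were added later. Named are the 15 highest members, the highest members of each list, the 10 genes with most members (further genes with 6, such as CHES-1-like, and other hosts of the lists are named from their counts), the 5 largest library differences in each direction, the peaks nearest each distance bound and the leading k-mers. Alternatives included the stronger 50% of the list, each library alone, other windows and flanks, 8-mers, protein-coding genes alone and other overlaps. The sequences of some of the highest members are not reported here. Of the list symbols, Dl and fas were not matched.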

Additional observations from a re-analysis of the deposited data

How the results depend on the processing

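No comparison between conditions was possible because there is only 1 group. With the stronger 50% of the peaks, fewer by construction, there were 507 members in 365 host genes, 21.0 per Mb, and 99.4% lay in the top regions of both libraries with a median absolute log2 difference of 0.24. The A+T difference was then 10.7 points, and 499 6-mers were called against flanks and 3 against promoter peaks, 0 more and 3 less frequent at members. With each library alone, density was 42.3 to 46.3 per Mb, and 0 to 1 6-mer was called against other peaks, the 1 being TAAAAA, less frequent at members, without replicate 3. With flanks 600 bp away the A+T difference was 6.84 points and 575 6-mers were called. With 25 bp to each side of the summit these were 9.86 and 485, 2 6-mers were called against other peaks (GGCAAA and AGTCAA, both more frequent at members) and 11 against promoter peaks. With 100 bp to each side the A+T difference was 7.46, 1 6-mer was called against other peaks (ATCGAT, less frequent) and 70 against promoter peaks. With 8-mers 166 were called against flanks and 4 against promoter peaks. Against the strongest weaker regions, as many as members, 0 6-mers were called. Requiring summits within 100 bp, 69.5% lay in the top regions of both libraries. The causes were not tested. No single value changed sign, but the balance of 6-mers against promoter peaks, 11 more and 15 less frequent at members, was 13 and 9 without replicate 3 and 9 and 2 with 25 bp to each side. Models with transposable elements, and the alternatives for promoter peaks, first introns and hosts with a promoter peak, were chosen after seeing the data. A control group, read depth and variation between more than 2 libraries are beyond what these lists allow.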
